A study of Homo sapiens with 14 samples.

Results

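Small nucleolar RNA genes were taken as all genes on the array whose only annotated symbol begins with SNORD, SNORA or SCARNA. The rule gave 192 of 18417 genes: 115 box C/D genes (SNORD), 61 H/ACA genes (SNORA) and 16 small Cajal body RNA genes (SCARNA). The SNORD116 group made up 20 of the box C/D genes, leaving 172 genes outside it. Expression was measured on 14 arrays (GeneChip Human Gene 1.0 ST) hybridised with total RNA from MKN28, as the labels name this gastric carcinoma line, which the study's paper names MKN74. Each condition had 1 array. The parental line was sampled after 1 and 2 days of hypoxia (1% O2) and after 1 and 2 days of TGFb (10 ng/mL), each with ANGPTL4 knockdown and without it, and untreated at day 2 without knockdown. The Snai1ER derivative, in which 4-hydroxytamoxifen (4-OHT) activates a transgenic Snai1 fused to an estrogen receptor domain, was sampled after 2 and 4 days of 4-OHT (20 ng/mL), with ANGPTL4 knockdown (an shANGPTL4 line, by the protocol) and without it, and untreated at day 4 without knockdown. The study's methods use siRNA against ANGPTL4 in parental cells and a doxycycline-induced hairpin in Snai1ER cells, so line, stimulus (4-OHT in Snai1ER, hypoxia or TGFb in parental cells) and knockdown method cannot be told apart; the labels do not give the method for the parental arrays, or say whether either line is 1 clone. ANGPTL4 itself lay near background on every array (4.16 to 5.66 on the log2 scale), so the array does not check the knockdown. Whole-transcript arrays cannot tell fewer cells carrying an RNA from less RNA per cell.

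Small nucleolar RNAs guide the chemical modification of other RNAs. Box C/D RNAs, carried by fibrillarin, NOP56, NOP58 and SNU13, direct 2′-O-methylation, and H/ACA RNAs, carried by dyskerin, NHP2, NOP10 and GAR1, direct pseudouridylation. Most act on ribosomal RNA, and a few such as U14 are needed for cutting the small-subunit rRNA precursor. The small Cajal body RNAs act on spliceosomal RNAs. In mammals nearly all lie in introns of host genes, many of which encode ribosomal or translation proteins. The SNORD115 and SNORD116 repeats lie in the long imprinted SNHG14 transcript, which is read from the paternal chromosome and is best known in neurons, and loss of SNORD116 is a feature of Prader-Willi syndrome. SNORD116 has no known rRNA target.

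By span in RefSeq (GRCh38.p14, strand not compared), 174 of the 192 genes lay within 1 host gene, 15 within several and 3 within none. The starts of the non-coding hosts whose snoRNA genes the results turn on are shown for their first bases, because snoRNA hosts often begin with a C followed by pyrimidines, the start typical of translation genes. Each run holds 30 bases, 15 before the annotated first base and 15 from it on, and the capitals mark the first 5 transcribed bases (RefSeq, GRCh38.p14).
SNHG14 (chr15:24823593-24823622, plus strand): cagttgtcctcctgcGCCGAcctcgaatgc
GAS5 (chr1:173869031-173869060, minus strand): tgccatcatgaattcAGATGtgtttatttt
SNHG1 (chr11:62855871-62855900, minus strand): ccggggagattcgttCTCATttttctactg
SNHG5 (chr6:85678719-85678748, minus strand): gctgcgcacttcggtCTTTTacgtcggcct
The motif sought was a C at the annotated first base followed by 4 bases that are each C or T, on the transcribed strand only. Of the 4 starts shown, SNHG5 held it. It was held by 29 of the 100 hosts in the promoter table (29%), by 18 of the 55 hosts of members above the filter on low values (32.7%), and by 5.14% of all 27305 genes of that table. A match here describes letters at an annotated start and not a regulatory site.

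The families differed in level before any treatment was considered. A gene entered the tests with a mean log2 level over the 14 arrays of at least 5.90 (40th percentile of the table), and 82 of the 192 members did so: 46 box C/D, 29 H/ACA and 7 small Cajal body RNA genes. The other 110 members have levels but no test. The median mean level was 4.41 for box C/D, 5.80 for H/ACA and 5.59 for small Cajal body RNA genes. The low box C/D median came with the imprinted repeats. The median was 3.33 for SNORD116 (2 of 20 above the filter), 2.73 for SNORD115 (0 of 20) and 3.15 for SNORD113 and SNORD114, the repeats of a second imprinted locus on chromosome 14 (0 of 6), against 6.39 for the remaining box C/D genes (44 of 69). No SNORD115 gene exceeded 4.13 on any array and no SNORD113 or SNORD114 gene exceeded 4.30. A single probe set stands for each gene in all but 5 cases, and levels of different probe sets are set side by side only as bright or dim.

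**Figure D1:**
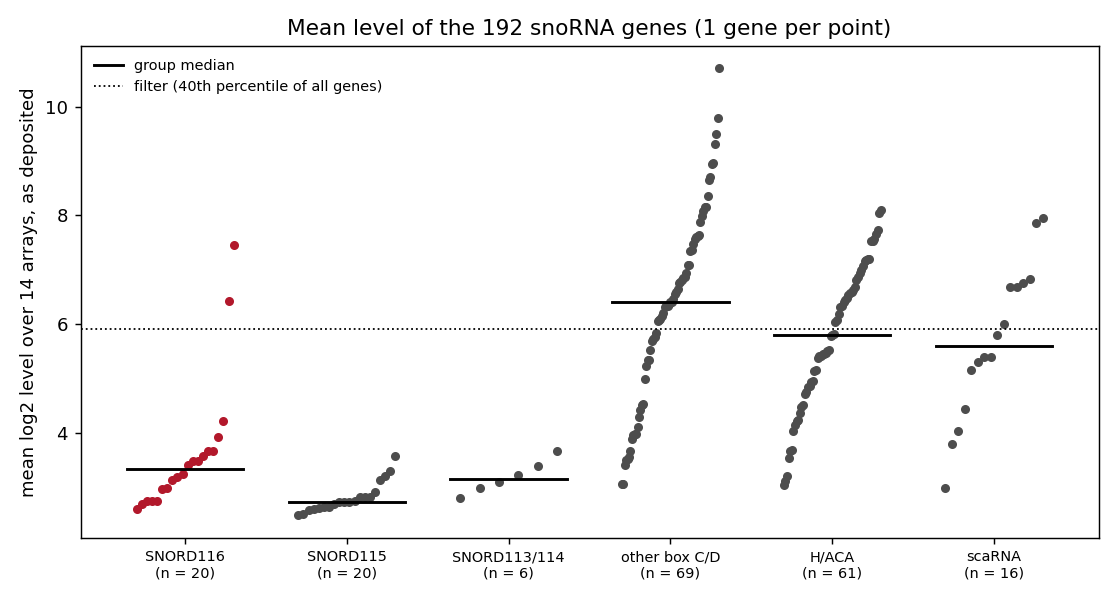
Mean log2 level over the 14 arrays, as deposited, of each of the 192 snoRNA genes by family (1 point per gene, bar at the family median, dotted line at the filter of 5.90). All SNORD115, SNORD113 and SNORD114 genes and 18 of the 20 SNORD116 genes lie below the filter, while 44 of the 69 other box C/D genes lie above it.

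The members varied more between arrays than other genes did. The median standard deviation over the 14 arrays was 0.72 on the log2 scale for the 82 members above the filter, against 0.39 for all 11050 genes above it (0.71 against 0.33 after quantile normalization of the arrays). It was 0.83 for box C/D, 0.49 for H/ACA and 0.77 for small Cajal body RNA genes. The spread was uneven over the arrays. On the ANGPTL4 knockdown array at hypoxia day 1, members deviated from their mean on the other arrays with a standard deviation of 1.44 (all genes 0.69) and a median of -0.82 (all genes -0.02). Of the 82 members, 37 had their lowest value of all 14 arrays there and 11 their highest. Of the lowest, 26 were box C/D, 8 H/ACA and 3 small Cajal body RNA genes. These counts were not made for all genes, whose deviation of 0.69 was also their largest on any array. The members' deviation was 1.02 at 4-OHT day 4, 0.99 at 4-OHT day 2 with knockdown and 0.95 at hypoxia day 2 with knockdown. The main knockdown results below are also given without the hypoxia day 1 pair.

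**Figure D2:**
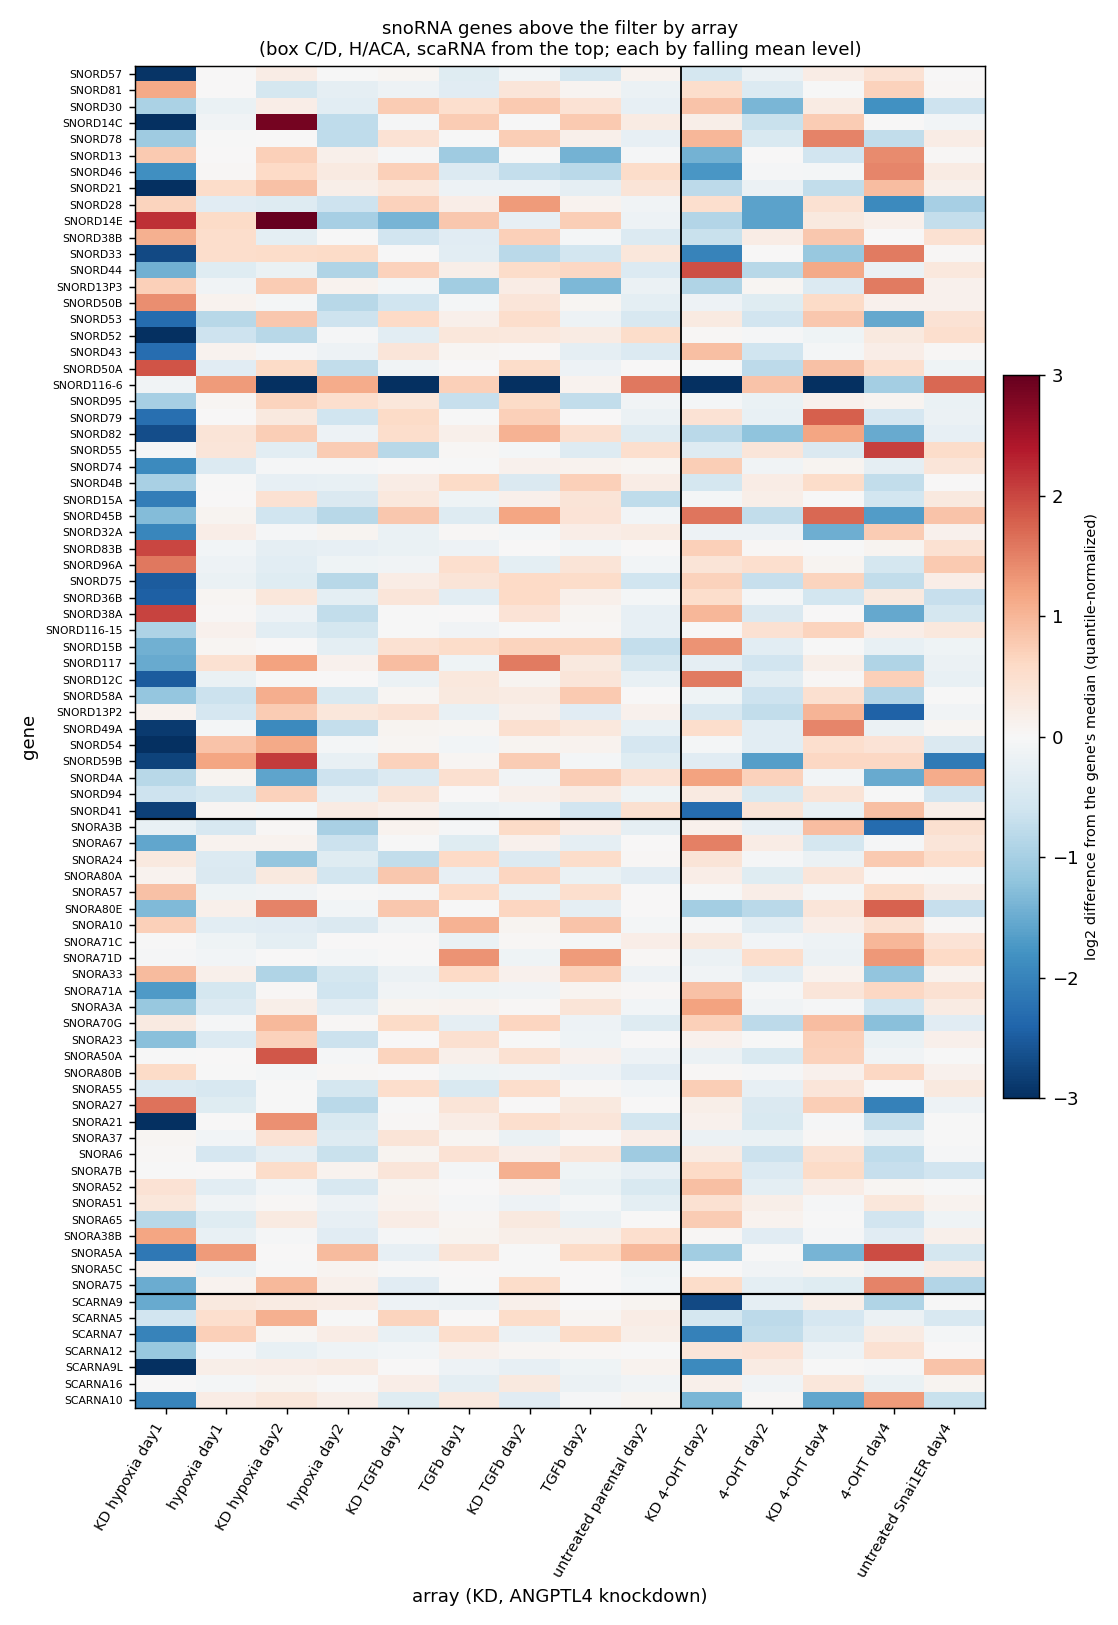
Log2 difference of each of the 82 snoRNA genes above the filter (rows, by class and falling mean level) from its own median over the 14 arrays (columns, KD for ANGPTL4 knockdown, left of the array without it), after quantile normalization. The knockdown array at hypoxia day 1 carries the lowest value of 37 of these genes in the values as deposited (a count not made for all genes). SNORD116-6 is low on the other 5 knockdown arrays.

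SNORD116-6 was the member that differed most with knockdown. It read 8.28 and 4.76 at hypoxia days 1 and 2 with knockdown, against 9.83 and 9.60 without it. It read 4.28 and 4.52 at TGFb days 1 and 2 with knockdown, against 8.99 and 8.36 without it. It read 4.45 and 4.07 at 4-OHT days 2 and 4 with knockdown, against 9.42 and 7.50 without it. The 2 untreated arrays, which have no knockdown partner, had the highest values, 10.28 in Snai1ER and 10.08 in parental cells. In each of the 6 pairs the knockdown array was the lower one, and 5 of the 6 knockdown arrays lay below every array without knockdown. The knockdown array of hypoxia day 1 lay above 4-OHT day 4 without knockdown, so the groups overlapped through that array.

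Over the 6 pairs the mean log2 difference of SNORD116-6 was -3.89 (standard error 0.36), a 14.8-fold lower level (limma with treatment and time as a block, adjusted p = 4.25e-04 over 11050 genes). After quantile normalization it was -4.02 (adjusted p = 0.0209), and without the hypoxia day 1 pair it was -4.36 (adjusted p = 3.32e-06). After quantile normalization the call was lost when the hypoxia day 2, TGFb day 2, 4-OHT day 2 or 4-OHT day 4 pair was left out (adjusted p = 0.0656 to 0.0875). The TGFb arrays without knockdown were dimmer as a whole than the other 12, with array medians of 5.23 and 5.19 against 5.997 to 6.16, so every TGFb value was also computed after quantile normalization. Without both TGFb pairs the difference was -3.70 and missed the threshold (adjusted p = 0.132).

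Other SNORD116 probe sets were read beside it because the copies are near-identical and share probes. The probe set annotated to both SNORD116-6 and SNORD116-2 was bright (mean 7.96) and was lower with knockdown in 6 of 6 pairs, by a mean of -1.16. It read 8.12 and 6.90 with knockdown at hypoxia days 1 and 2, against 9.33 and 9.14 without it. It read 7.12 and 6.64 with knockdown at TGFb days 1 and 2, against 7.68 and 7.36 without it, and 7.50 and 6.73 with knockdown at 4-OHT days 2 and 4, against 8.59 and 7.85 without it. SNORD116-26 was dim (mean 4.22, below the filter and so not tested) and also lower in 6 of 6 pairs, at 4.81 and 2.96 with knockdown against 5.09 and 4.97 without it under hypoxia, and at 3.80 and 3.57 against 4.42 and 4.32 under 4-OHT. SNORD116-15, the other member of the group above the filter (mean 6.41), had a difference of 0.17 (standard error 0.23, adjusted p = 0.709) and was lower in 2 of 6 pairs (0.38 without the hypoxia day 1 pair, adjusted p = 0.307). The remaining 17 SNORD116 genes had mean levels of 2.59 to 3.93 and no value above 4.61 on any array. A change in them was not detectable at these signals. Of the 80 members above the filter outside the SNORD116 group, 1 was called by the knockdown fit (SNORD38A, below).

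**Figure D3:**
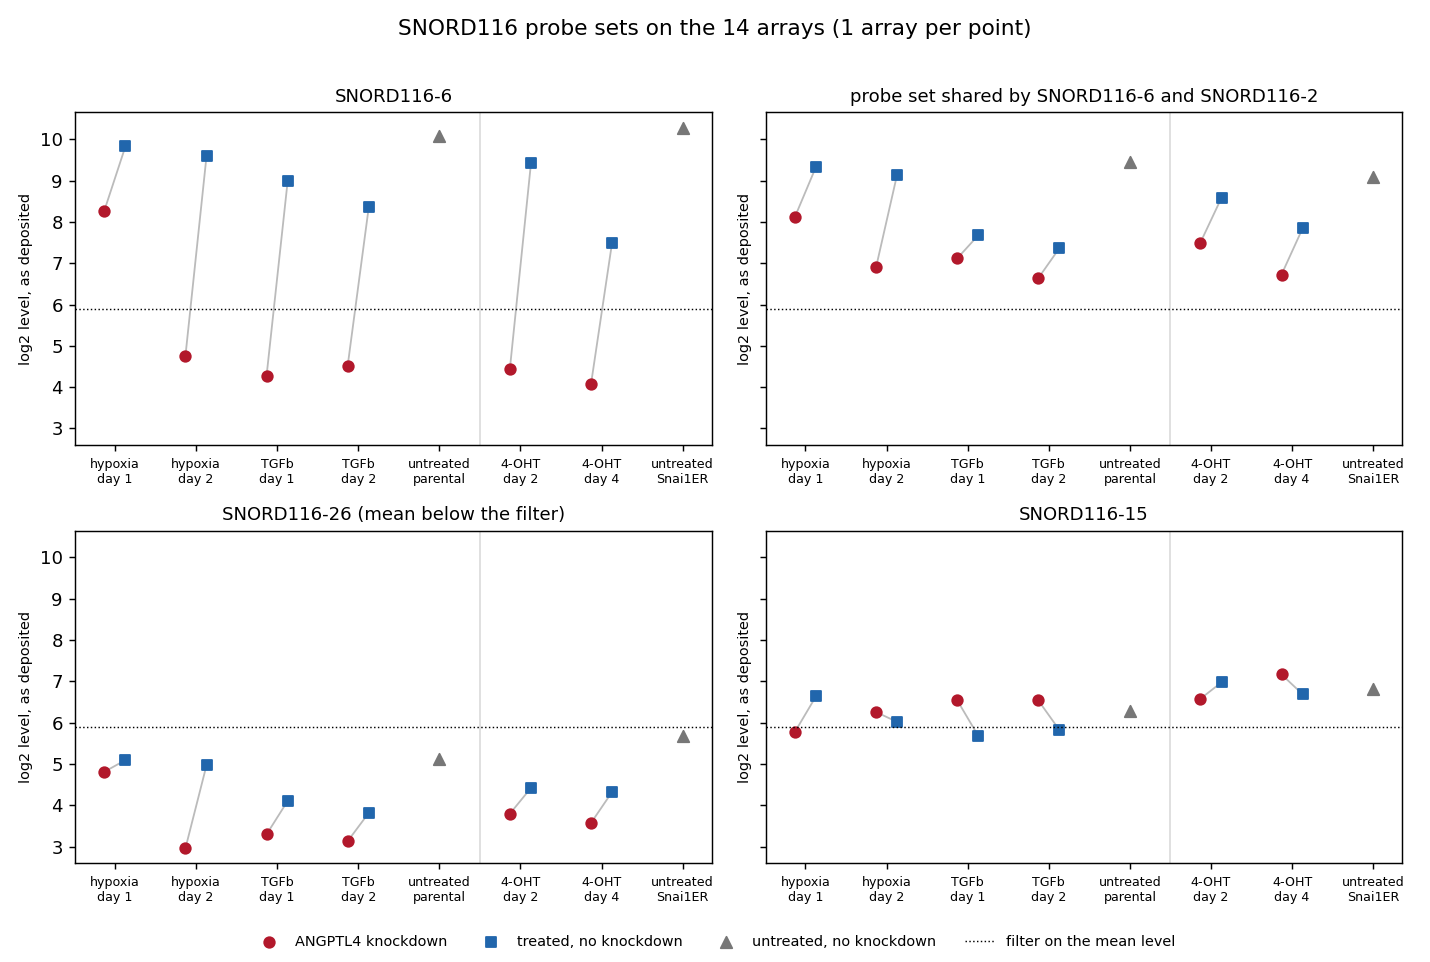
Log2 level as deposited on each of the 14 arrays of 4 SNORD116 probe sets (circles, ANGPTL4 knockdown; squares, treated without knockdown; triangles, untreated; lines join the arrays of a pair; dotted line, filter). SNORD116-6, its shared probe set and SNORD116-26 were lower with knockdown in 6 of 6 pairs, while SNORD116-15 was lower in 2 of 6.

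SNORD116-6 was also lower in the treated arrays without knockdown than in the untreated ones. Its log2 difference from the untreated parental array was -1.41 on average under TGFb (-1.18 after quantile normalization), and it passed a rule of size (a difference of 1.5-fold or more, of equal sign at both time points) on both scales. Its mean difference from untreated Snai1ER was -1.82 under 4-OHT, where it also passed the rule. Under hypoxia it lay within 1.5-fold of the untreated array at both times. With 1 array per condition these comparisons carry no test. As a description over the 14 arrays after quantile normalization, the genes outside the group that ran most like SNORD116-6 were STARD3NL (Pearson r 0.94), FAM76A (0.94), ATP5ME (0.90), NDUFA1 (0.89) and MGST3 (0.89). Those most like the mean of all 20 SNORD116 genes, of which 18 were dim and below the filter, were SNRPB2 (0.91), SDHC (0.90), MAPK1IP1L (0.90), UQCR11 (0.89) and HAGH (0.89). None of these 10 was called by the knockdown fit on the values as deposited, and SDHC was after quantile normalization (-0.74, adjusted p = 0.0437). The points share their treatments and lines.

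Beyond SNORD116-6, the knockdown fit called 1 member, SNORD38A, a box C/D RNA that guides methylation of the large-subunit rRNA. It read 8.39 and 6.46 with knockdown at hypoxia days 1 and 2, against 6.59 and 5.87 without it. It read 6.61 and 7.004 with knockdown at TGFb days 1 and 2, against 5.89 and 5.92 without it. It read 7.58 and 6.64 with knockdown at 4-OHT days 2 and 4, against 6.12 and 5.04 without it. As deposited, the knockdown array was higher in each of the 6 pairs, though its value at hypoxia day 2 was below the array without knockdown at hypoxia day 1. The mean difference as deposited was 1.21 (standard error 0.20, adjusted p = 0.0394), or 1.09 without the hypoxia day 1 pair (adjusted p = 0.0462). After quantile normalization it was 0.98 and did not pass (adjusted p = 0.109). On that scale the knockdown array was not the higher one in the TGFb day 1 pair, and the mean without that pair was 1.18. In all, 2 of 82 members were called, 1 in each direction, where 0.127% of all genes tested were called (0.0452% higher and 0.0814% lower). After quantile normalization, where 0.896% of all genes were called (0.0905% higher and 0.805% lower), the 2 members were SNORD116-6 and the H/ACA gene SNORA80A (0.70, adjusted p = 0.0456, higher in 6 of 6 pairs).

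Several box C/D and H/ACA genes had a large positive difference that did not pass. SNORD28, which lies in SNHG1 and guides methylation of the small-subunit rRNA, read 9.04 and 9.01 with knockdown at 4-OHT days 2 and 4, against 6.97 and 6.63 without it. It read 9.02 and 8.19 with knockdown at hypoxia days 1 and 2, against 8.25 and 7.98 without it, and 9.27 and 9.88 with knockdown at TGFb days 1 and 2, against 8.40 and 8.37 without it. Its pairs differed far more under 4-OHT than under hypoxia day 2, and its mean difference was 1.30 (standard error 0.26, adjusted p = 0.0754), or 1.41 without the hypoxia day 1 pair (adjusted p = 0.0573). SNORA70G, an H/ACA gene within RAP1B, had a difference of 1.29 (standard error 0.23, adjusted p = 0.0505), which was 1.51 and called without the hypoxia day 1 pair (adjusted p = 0.0102). SNORD50A, within SNHG5, had 1.04 (adjusted p = 0.0938), SNORD13P2, an annotated copy of the U13 gene, 1.24 (adjusted p = 0.153), and SNORA27, within RPL21, 1.08 (adjusted p = 0.156). All 5 were higher with knockdown in 6 of 6 pairs as deposited. After quantile normalization SNORA27 was lower with knockdown in both TGFb pairs (mean 0.91, and 1.17 or 1.15 without the TGFb day 1 or day 2 pair). SNORD50A was then lower in the TGFb day 1 pair (mean 0.88, and 1.08 without that pair). The sole member besides SNORD116-6 that was lower in 6 of 6 pairs as deposited was SCARNA7 (U90, a guide for the U1 spliceosomal RNA), at -0.82 (adjusted p = 0.227), or -0.48 without the hypoxia day 1 pair (adjusted p = 0.219). The count of consistent signs differed between the scales: 16 of 82 members were higher in 6 of 6 pairs as deposited, where 6.71% of all genes were, and 8 after quantile normalization, where 3.84% were. Lower in 6 of 6 pairs were 2 members as deposited, where 2.73% of all genes were, and 3 after quantile normalization, where 8.33% were.

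By class, the median knockdown difference was 0.34 for box C/D, 0.42 for H/ACA and -0.35 for the 7 small Cajal body RNA genes, against 0.12 for all genes. After quantile normalization the medians were 0.12, 0.11 and -0.49, against -0.06 for all genes. Positive differences were found in 34 of 46 box C/D, 24 of 29 H/ACA and 2 of 7 small Cajal body RNA genes (27, 20 and 2 after quantile normalization). All genes leaned positive as deposited too. Without the hypoxia day 1 pair 7748 of all 11050 genes were positive, beside 38 box C/D, 24 H/ACA and 3 small Cajal body RNA genes. After quantile normalization without it 4468 of all genes were positive, beside 34, 21 and 2. The pairs did not run alike. The members' median minus that of all genes was -0.73 in the hypoxia day 1 pair and between 0.25 and 0.44 in the other 5 pairs. In that pair box C/D genes had a median difference of -1.26, small Cajal body RNA genes -1.85 and H/ACA genes 0.16. Without this pair the median knockdown difference was 0.59 for box C/D, 0.57 for H/ACA and -0.04 for small Cajal body RNA genes, against 0.18 for all genes (0.29, 0.34 and -0.23, against -0.06, after quantile normalization). Without this pair, 8 of 82 members were called, where 41 of all 11050 genes were. Of these members 7 were higher: SNORA70G, SNORA7B, SNORD117, SNORD38A, SNORD45B, SNORD53 and SNORD79, besides SNORD116-6. After quantile normalization without this pair, 6 members were called, where 432 of all 11050 genes were: SNORA55, SNORA70G, SNORA7B, SNORA80A and SNORD117, all higher, and SNORD116-6.

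**Figure D4:**
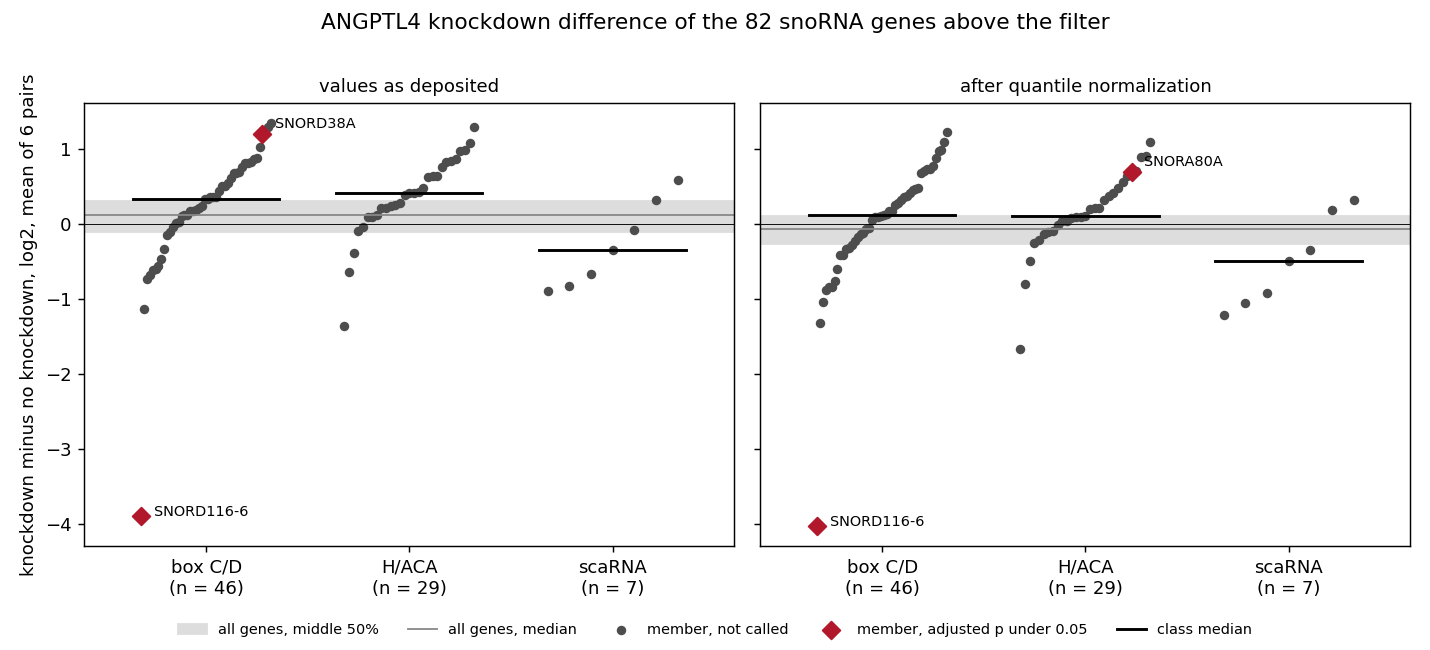
Knockdown minus no knockdown (log2, mean of 6 pairs) of the 82 snoRNA genes above the filter, by class, as deposited (left) and after quantile normalization (right). Points are genes, diamonds those with adjusted p under 0.05, bars class medians and the grey band the middle 50% of all genes. SNORD116-6 lies near -4 on both scales, and the next lowest members lie between -1 and -2.

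Members of one host did not always move together. The 6 GAS5 genes above the filter (SNORD44, SNORD74, SNORD75, SNORD78, SNORD79 and SNORD81) had a median pairwise correlation of 0.74 over the 14 quantile-normalized arrays, SNORD28 and SNORD30 of SNHG1 0.81, SNORD50A and SNORD50B of SNHG5 0.87, and SNORD32A and SNORD33 of RPL13A 0.78. SNORD95 and SNORD96A of RACK1 had -0.80. Over all 34 pairs of members that share 1 single host the median was 0.45, against 0.12 for the 3287 other pairs. The other pairs include any with a member within several hosts or none. Without the knockdown array of hypoxia day 1 these medians were 0.51 and 0.07, and the correlations were 0.58 for GAS5, 0.95 for SNHG1, 0.73 for SNHG5, 0.61 for RPL13A and -0.71 for RACK1. Among the coherent groups, the motif sought was at the annotated start shown above for SNHG5 and not at those for GAS5 or SNHG1. Only annotated starts were read, so a missing match does not show that a host lacks such a start. The knockdown differences of the GAS5 genes ranged from 0.19 (SNORD74, adjusted p = 0.702) to 0.82 (SNORD44, adjusted p = 0.276), none of them called. SNORD74 had 0.49 (adjusted p = 0.187) and SNORD44 1.2 (adjusted p = 0.0816) without the hypoxia day 1 pair, where SNORD79 was called. The RPL13A pair ran the other way, with SNORD33 at -1.12 (adjusted p = 0.251) and SNORD32A at -0.56 (adjusted p = 0.393). They had -0.74 (adjusted p = 0.311) and -0.27 (adjusted p = 0.616) without the hypoxia day 1 pair. The 44 members with 1 measured host above the filter had a median correlation of 0.18 with that host's own probe sets. These correlations share the same 14 arrays, and genes of 1 host are not independent.

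The genes that build and process snoRNAs gave no call in the knockdown fit. Of the 29 listed, 26 were measured and all passed the filter, and 0 were called by the knockdown fit, like 0 of the 74 hosts above the filter. Over all genes 0.127% were called as deposited, so 0 calls in sets of this size lay near the background. Their median difference was -0.11 as deposited and -0.23 after quantile normalization. Fibrillarin (FBL), the box C/D methyltransferase, had -0.31 (adjusted p = 0.403), NOP58 had 0.37 (adjusted p = 0.303), and dyskerin (DKC1), the H/ACA pseudouridine synthase, had -0.27 (adjusted p = 0.442). Without knockdown, 0 of the 26 passed the size rule under 4-OHT against untreated on either scale. As deposited 2.3% of all genes were higher and 1.19% lower. Under hypoxia 0 passed it as deposited. After quantile normalization 2 were lower (DKC1 at -0.65 and the assembly factor ZNHIT6 at -0.79), where 1.95% of all genes were. Under TGFb 4 were lower as deposited, where 32.3% of all genes were, and 0 after quantile normalization, where 3.26% were. With knockdown under 4-OHT, PIH1D1 (-1.43), ZNHIT3 (-1.19) and GEMIN2 (-0.74) were lower on both scales, where 6.77% of all genes were as deposited. With knockdown under hypoxia NHP2 (-1.11) was lower on both scales, where 4.02% were as deposited. With knockdown under TGFb, GAR1 and COIL were higher as deposited only. NUFIP1 and RUVBL2 were lower there after quantile normalization only.

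SNORD13 (U13) differed with knockdown in opposite directions in the parental and the Snai1ER pairs. Whether that contrast passed the test depended on the pairs fitted and on the scale. It read 9.70 and 9.81 with knockdown at hypoxia days 1 and 2, against 9.15 and 9.24 without it, and 9.09 and 9.13 with knockdown at TGFb days 1 and 2, against 7.65 and 7.24 without it. In Snai1ER cells it read 7.72 and 8.53 with knockdown at 4-OHT days 2 and 4, against 9.15 and 10.51 without it. Knockdown arrays were thus higher in 4 of 4 parental pairs (mean 1.11) and lower in 2 of 2 Snai1ER pairs (mean -1.71). The difference between the pairs under 4-OHT in Snai1ER and those under hypoxia or TGFb in parental cells, Snai1ER minus parental, was -2.82 and did not pass (limma interaction, adjusted p = 0.0561, and -2.65 with adjusted p = 0.0788 after quantile normalization). Without the hypoxia day 1 pair it was -3.01 and passed (adjusted p = 0.0025, and -2.70 with adjusted p = 0.0402 after quantile normalization). As deposited it also passed without the TGFb day 1 pair (-2.71, adjusted p = 0.0139) or the TGFb day 2 pair (-2.56, adjusted p = 0.0138). After quantile normalization it passed without neither of these (-2.62, adjusted p = 0.257, and -2.50, adjusted p = 0.182). Without the hypoxia day 2 pair it did not pass on either scale (adjusted p = 0.297 and 0.291). Leaving out the 4-OHT day 2 or day 4 pair leaves 1 Snai1ER pair, and the difference as deposited was then -3.09 or -2.55. SNORD13P3, an annotated copy of the gene within KIF9, ran the same way, with a mean of -1.42 in Snai1ER and 1.26 in parental pairs (interaction -2.69, adjusted p = 0.0785, and -2.91 with adjusted p = 0.00606 without the hypoxia day 1 pair). The 2 probe sets may detect the same RNA, so they are not separate evidence. In all, 0 of 82 members were called by the interaction as deposited or after quantile normalization, where 0.0452% and 0% of all genes tested were called. Without the hypoxia day 1 pair 9 members were called as deposited, where 1.15% of all genes were: SNORD30 was higher (1.61), and SNORD13, SNORD13P3, SNORD33 (-2.63), SNORD41 (-2.57), SNORD46 (-2.37), SCARNA10 (-2.28), SNORA80E (-2.20) and SNORD21 (-1.79) were lower in Snai1ER relative to parental pairs. After quantile normalization 4 of these were called without it (SNORD13, SNORD13P3, SNORD30 and SNORD33), where 0.326% of all genes were.

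**Figure D5:**
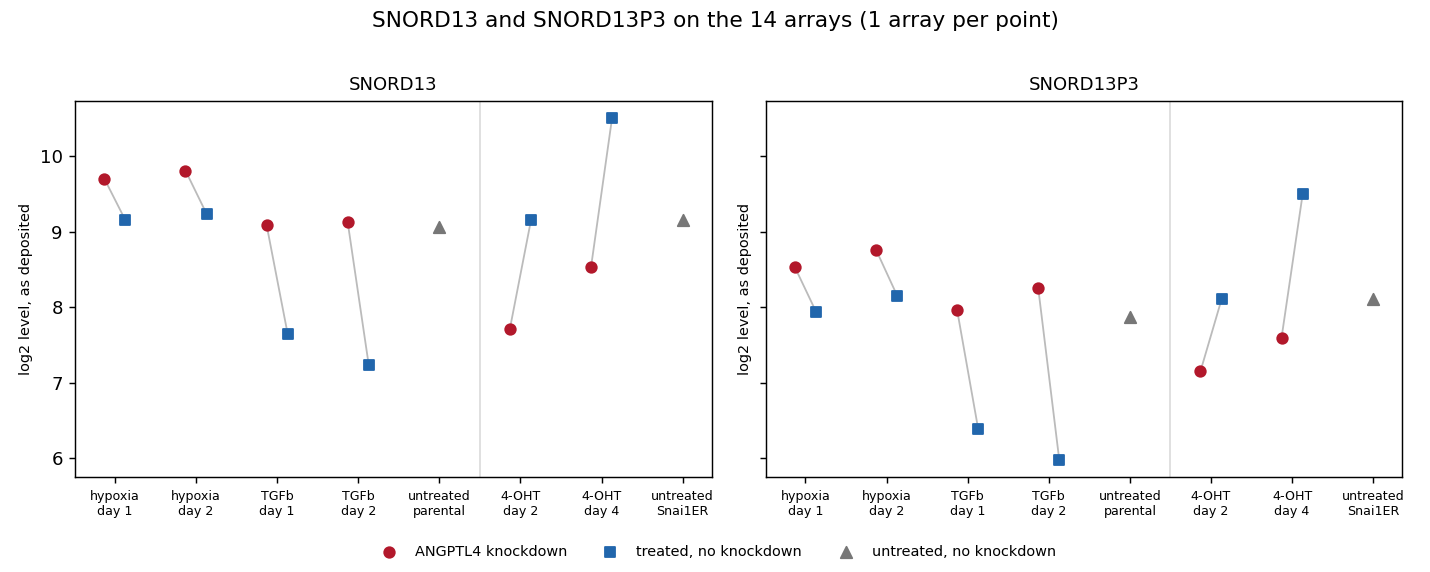
Log2 level as deposited of SNORD13 and SNORD13P3 on each of the 14 arrays (circles, ANGPTL4 knockdown; squares, treated without knockdown; triangles, untreated; lines join the arrays of a pair). Knockdown arrays lie above their partners in the 4 parental pairs and below them in the 2 Snai1ER pairs.

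The U14 genes, which serve rRNA processing, had the widest ranges after SNORD116-6 (after quantile normalization). SNORD14C and SNORD14E, U14 copies in introns of HSPA8, read 12.10 and 12.07 at hypoxia day 2 with knockdown, their highest values on the 14 arrays. SNORD14C read 6.25 at hypoxia day 1 with knockdown, its lowest value, against 9.20 at hypoxia day 1 and 8.53 at hypoxia day 2 without knockdown. SNORD14E read 9.98 at hypoxia day 1 with knockdown, against 8.58 and 7.05 at hypoxia days 1 and 2 without it. The 2 copies were thus far apart at hypoxia day 1 with knockdown and alike at hypoxia day 2 with knockdown. Their host HSPA8 stayed between 12.15 and 12.99 on all arrays. Over the 6 pairs neither was called, with SNORD14C at 0.21 (standard error 0.55, adjusted p = 0.860) and SNORD14E at 0.83 (standard error 0.60, adjusted p = 0.475). Leaving out the hypoxia day 1 pair gave 0.84 (adjusted p = 0.299) for SNORD14C and 0.71 (adjusted p = 0.539) for SNORD14E. SNORA21 and SNORD59B completed the 5 widest ranges, both lowest at hypoxia day 1 with knockdown (3.32 and 3.59) and highest at hypoxia day 2 with knockdown (8.26 and 8.43).

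Within the treatments, the size rule gave a different picture for each stimulus, without a test. Under hypoxia, 3 of 82 members passed it: SNORD117 was higher (6.89 and 6.58 at days 1 and 2, against 5.90 untreated), and SNORA38B (6.10 and 6.03, against 6.85 untreated) and SNORA71A (6.75 and 6.72, against 7.34 untreated) were lower. Over all genes 2.94% were higher and 1.71% lower by the same rule, so the members' counts lay near the background. After quantile normalization the members' counts were again 1 and 2, where 3.03% and 1.95% of all genes were called. Under TGFb as deposited 25 members were lower, where 32.3% of all genes were, and 3 were higher, where 0.452% were. After quantile normalization 10 were higher, where 2.5% of all genes were, and 7 lower, where 3.26% were. All 7 of these lower members were box C/D: SNORD13, SNORD116-6, SNORD46, SNORD13P3, SNORD41, SNORD33 and SNORD95. The higher ones were led by SNORA6 (mean difference 1.46), SNORD15B (1.32) and SNORA71D (1.28), the same 3 that were higher as deposited. SNORA6 read 6.62 and 6.50 at TGFb days 1 and 2, against 5.70 untreated, even on the dimmer arrays.

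Under 4-OHT, 12 of 82 members were lower, where 1.19% of all genes were, and 2 were higher (SCARNA10, U85, a guide for the U5 spliceosomal RNA, and SNORD36B), where 2.3% were. After quantile normalization 13 were lower, where 1.21% of all genes were, and 2 higher, where 2.34% were. Of the lower ones, 9 were box C/D of 46 and 2 were H/ACA of 29. SNORD45B read 6.05 and 5.13 at 4-OHT days 2 and 4, against 7.62 untreated. SNORA3B read 8.08 and 5.99, against 8.76 untreated, and SNORD53 read 7.32 and 6.33, against 8.29 untreated. In each of these the later array was the lower. With knockdown the same 3 genes read 8.38 and 8.51 (SNORD45B), 8.41 and 9.26 (SNORA3B) and 8.14 and 8.67 (SNORD53) at 4-OHT days 2 and 4. Knockdown under 4-OHT gave 18 members higher, where 2.38% of all genes were, and 11 lower, where 6.77% were. After quantile normalization it gave 15 higher, where 2.18% of all genes were, and 12 lower, where 7.47% were. Those furthest up were SNORD45B (mean difference 2.86), SNORD28 (2.23) and SNORD30 (2.21), and those furthest down SNORD116-6 (-4.20), SNORD33 (-2.31) and SNORA5A (-2.07). These 2 comparisons share the 4-OHT arrays without knockdown, so the values stand side by side and are not independent.

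Knockdown under hypoxia gave 6 members higher, where 0.434% of all genes were, led by SNORD14E (3.21) and SNORD50A (1.64), and 5 lower, where 4.02% were, led by SNORD116-6 (-3.20) and SNORA5A (-2.14). After quantile normalization it gave 5 in each direction, where 0.67% of all genes were higher and 3.78% lower. Every one of these counts rests in part on the hypoxia day 1 knockdown array. Knockdown under TGFb gave 40 members higher, where 27.6% of all genes were, and 3 lower, where 0.751% were. After quantile normalization it gave 10 in each direction, where 1.36% of all genes were higher and 4.5% lower. SNORD116-6 (-4.63) was then the lowest, and SNORD13P3 (1.27) and SNORD13 (1.21) the highest.

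Untreated Snai1ER and untreated parental cells differed by at least 1.5-fold in 11 members higher, where 4.74% of all genes were, and 9 lower, where 8.11% were, on arrays of different days. After quantile normalization the counts were 11 and 8, where 5.09% and 8.14% of all genes were called. SNORD116-6 was alike in the 2 untreated lines (10.28 in Snai1ER and 10.08 in parental cells), as were SNORD13 (9.15 and 9.07) and SNORD38A (6.06 and 6.33). Epithelial markers passed the filter in 8 of 9 measured cases (EPCAM 11.7), against 0 of 4 leukocyte, 0 of 3 endothelial and 1 of 5 fibroblast markers (COL1A1, 6.90). SNAI1 read 8.80 to 9.85 on the Snai1ER arrays, against 4.76 to 6.19 on the parental ones.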

How the data were processed

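Total RNA was amplified (NuGEN Applause WT-Amp ST), labelled and hybridised to 14 arrays, 1 for each of 14 conditions. The authors made the deposited log2 values by RMA in Partek (versions are not given in the sources used here). They were used as deposited, and quantile normalization was the main alternative. Of 33297 probe sets, 19460 carry 1 gene symbol and were averaged to 18417 genes. A further 76 probe sets carry a snoRNA among several symbols and were not counted as members. Of the 198 member probe sets, 66 hold the same value on at least 2 arrays (29.6% of all probe sets do). All 192 members matched RefSeq (GRCh38.p14) by gene ID. Hosts were found by span, without comparing strands, which the table does not give. The array's own build was not given, so no snoRNA coordinates are printed, and snoRNA sequences were not used here.

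Knockdown was tested in R 4.3.3 with limma 3.58.1 (lmFit, eBayes) over the 12 treated arrays, blocked by pair (6 pairs, each 1 treatment at 1 time; 5 residual degrees of freedom), on 11050 genes with a mean of at least 5.90, Benjamini-Hochberg over all of them, threshold 0.05. The interaction set 2 Snai1ER (4-OHT) against 4 parental (hypoxia, TGFb) pairs. The pairing comes from the labels, which give 1 array with and 1 without knockdown for each treatment and time. P-values measure the spread between pairs of different treatments, and nothing shows separate cultures. Other comparisons used a size rule of 1.5-fold at both times. The script was tested on simulated data. Figures were drawn with matplotlib 3.10.9. The number of arrays limits the precision.

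Named members were those called, the 6 highest and 6 lowest knockdown differences with 1 sign in 6 of 6 pairs, up to 4 members per direction and treatment by the size rule, the 5 widest ranges, all SNORD116 genes and rRNA processing snoRNAs; others named (such as SNORA80A, SNORD30, SNORD33, SNORA5A and those called without the hypoxia day 1 pair) were picked with their values in view. The members, lists and tests were chosen with earlier results of these data known. One host gene is not reported here.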

Additional observations from a re-analysis of the deposited data

Results flagged for a closer look

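The knockdown difference of SNORD13 pointed in opposite directions in the Snai1ER pairs (4-OHT) and the parental pairs (hypoxia or TGFb), with every Snai1ER pair lower and every parental pair higher with knockdown. Snai1ER minus parental was -2.82 (limma interaction, adjusted p = 0.0561). The same held for SNORD13P3, at -2.69 (adjusted p = 0.0785). Over all 6 pairs neither passed the threshold on either scale (adjusted p = 0.0788 and 0.106 after quantile normalization). Without the hypoxia day 1 pair, left out after seeing the data, both passed as deposited (-3.01, adjusted p = 0.0025, and -2.91, adjusted p = 0.00606). They did so after quantile normalization too (adjusted p = 0.0402 and 0.0486). Without the hypoxia day 2 pair neither passed on either scale (as deposited, adjusted p = 0.297 and 0.327). Without the TGFb day 1 or day 2 pair both passed as deposited and neither passed after quantile normalization (adjusted p = 0.182 to 0.267). Line, stimulus and knockdown method cannot be told apart here, and the 2 probe sets may read the same RNA.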

How the results depend on the processing

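The knockdown fit called 14 genes, 2 of them snoRNA genes, on the values as deposited. It called 99 after quantile normalization, 1191 with arrays centred on their median (7 snoRNA genes), 35 without the filter (4), 92 with no replicate block and treatment as a covariate only (6), 28 with a mean-variance trend, 38 with array weights (4), 2 without the TGFb pairs (0, also after quantile normalization, where 2 genes were called) and 1 in the parental pairs alone (1). SNORD116-6 kept its sign in all 24 alternatives, from -4.55 to -3.67, and passed in 18. With no replicate block it passed at an adjusted p of 0.00237, and with the parental pairs alone, an alternative chosen after seeing the data, at 0.0320. SNORD38A kept its sign and missed the threshold in 16 of 24. Leaving out 1 pair at a time gave 5 to 41 genes and 1 to 8 snoRNA genes as deposited, and 0 to 432 and 0 to 6 after quantile normalization. Under quantile normalization SNORD116-6 lost its call without the hypoxia day 2, TGFb day 2, 4-OHT day 2 or 4-OHT day 4 pair (adjusted p = 0.0695, 0.0837, 0.0875 and 0.0656). The interaction called 5 genes as deposited and 0 after quantile normalization. Leaving out 1 pair at a time, chosen after seeing the data, gave 0 to 127 genes and 0 to 9 snoRNA genes as deposited, and 0 to 36 and 0 to 4 after quantile normalization, with the highest counts without the hypoxia day 1 pair. The snoRNA median minus that of all genes was 0.21, from 0.14 to 0.38 without 1 pair (0.38 without hypoxia day 1), and -0.00094 without the filter.

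The size rule gave 3 members under hypoxia, 28 under TGFb, 14 under 4-OHT, 11, 43 and 29 for knockdown under hypoxia, TGFb and 4-OHT, and 20 between the untreated lines. Quantile normalization gave 17 under TGFb and 20 for knockdown under TGFb, and median centring gave 18 for knockdown under TGFb. Without the filter the counts were 5 under hypoxia, 80 under TGFb, 81 for knockdown under TGFb and 35 between the lines. A 2-fold rule gave 0, 11, 1, 4, 18, 14 and 3 in the order first given. The first time point alone gave 13 under hypoxia, 59 for knockdown under hypoxia and 50 for knockdown under 4-OHT. The second alone gave 14, 39 and 49 for these and 44 under 4-OHT. SNORD116-6, SNORD38A, SNORD28, SNORA70G, SNORD13P2, SNORA27, SNORD50A and SCARNA7 kept the sign of their knockdown difference in all 24 alternatives, as did SNORD13 and SNORD13P3 that of their interaction in those run. The cause of these shifts was not tested. Dim probe sets, among them 110 of the 192 members, limit what can be seen of the imprinted repeats.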

Other observations

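Probe sets with several symbols were read for the SNORD116 locus as values only. The set annotated to SNORD116-9, SNORD116-8, SNORD116-6 and SNORD116-3 had a mean of 3.49 and a mean knockdown difference of -0.52. The set for SNORD116-9, SNORD116-7, SNORD116-5 and SNORD116-3, without SNORD116-6, had a mean of 3.29 and a difference of -0.0018.

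The GAS5 gene was read through probe sets it shares with 1 of its snoRNA genes. The set for GAS5 and SNORD47 read 9.30 and 8.32 with knockdown at hypoxia days 1 and 2, against 8.69 and 8.19 without it, and 9.02 and 9.38 with knockdown at 4-OHT days 2 and 4, against 8.19 and 7.95 without it. Its mean difference over the 6 pairs was 0.81 as deposited and 0.71 after quantile normalization. The set for GAS5 and SNORD80 had 0.34 and 0.26, and that for GAS5 and SNORD76 had 0.55 and 0.45.

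Other rRNA processing snoRNAs were read only through shared probe sets. The set for the SNORD3 genes (U3) had a mean of 6.03 and a mean knockdown difference of -0.15 as deposited and -0.52 after quantile normalization, with 2 of 6 pairs lower and a mean of 0.07 as deposited without the hypoxia day 1 pair. The set for SNORA73A (U17) and its host SNHG3 had a mean of 7.25 and differences of -0.91 and -1.12, and was lower with knockdown in 4 of 6 pairs. Without the hypoxia day 1 pair its mean difference was -0.18 as deposited.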
